A study of Anguilla japonica with 6 samples.

Results

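Signalling genes of the BMP, activin and AMH branches of the transforming growth factor beta superfamily were followed in gonads of the Japanese eel (Anguilla japonica): the ligand genes gdf9, bmp15 and inhbb, the receptor genes bmpr1a, bmpr1b, acvr1c and amhr2, the antagonist gene fsta, and the target genes id1 and id2. They were found by the gene name of the best vertebrate SwissProt protein hit of each transcript, and are 10 of the 9262 gene symbols and 18 of the 35011 transcripts in the data. The fish were farmed eels that had reached the silver stage, with gonads already differentiated into ovary or testis but still immature, and no hormone had been given to either sex. The ovaries of 3 females and the testes of 3 males were compared, 1 library per fish. Short reads had been assigned to full-length transcripts, which PacBio long reads from ovary and testis had defined.

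In this pathway a secreted ligand dimer brings together type I and type II receptor kinases, the receptors phosphorylate SMAD proteins, and the SMADs change the transcription of target genes, among which the ID genes are well known for BMP signals. In vertebrate ovaries the oocyte itself secretes GDF9 and BMP15, which act on the surrounding follicle cells. Anti-Mullerian hormone (AMH) is made by somatic cells of the gonad and acts through its own type II receptor, AMHR2, and activins are dimers of inhibin beta chains that follistatin binds and blocks.

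The libraries held 11913969 to 18508307 estimated counts, and these limit the precision of the low genes below. The tissue labels were checked with marker genes. The egg envelope gene zp3 stood at 69927 to 94716 FPKM (sequenced fragments scaled by transcript length and library size) in the ovaries and at 572 to 13099 in the testes, and dmrt1, which encodes a testis-determining factor in several vertebrates, at 1.01 to 4.08 in the ovaries and 55.2 to 85.5 in the testes. Of 5 Sertoli cell markers only dmrt1 and cldn11 matched a transcript by symbol. Testis replicate 1 stood apart: its rank correlations across genes were 0.785 with testis 2 and 0.773 with testis 3, whereas that between testes 2 and 3 was 0.917.

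Of the 10 genes, 5 were higher in ovary (gdf9, bmp15, bmpr1a, acvr1c and id1), 4 were higher in testis (bmpr1b, amhr2, fsta and id2), and inhbb did not pass the test (edgeR, Benjamini-Hochberg adjusted p under 0.05 over all genes). The 2 tissues differed widely in general, so that 45.9% of the 12367 genes tested passed, 21.1% with higher values in ovary and 24.8% with higher values in testis. These 12367 are summed symbols together with transcripts that have no symbol, each of which was kept single and is counted as a gene here. All 10 genes passed the filter on low counts. The values of the tissues did not overlap for 9 of the 10 genes, against 59.2% of all genes tested. The median size of the difference was 3.72 on the log2 scale over the 10 genes and 1.42 over all genes tested. The 10 genes were chosen with earlier results of these data known, so their larger share and size are no independent evidence about the pathway. Without testis replicate 1 the numbers were 4 higher in ovary and 4 higher in testis, with acvr1c no longer called. Only 2 remained higher in testis without ovary replicate 1 (amhr2 and fsta lost) and without testis replicate 3 (the same pair lost), with 4 higher in ovary each time. In whole gonads, fewer cells of a type and less RNA per cell cannot be told apart.

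**Figure D1:**
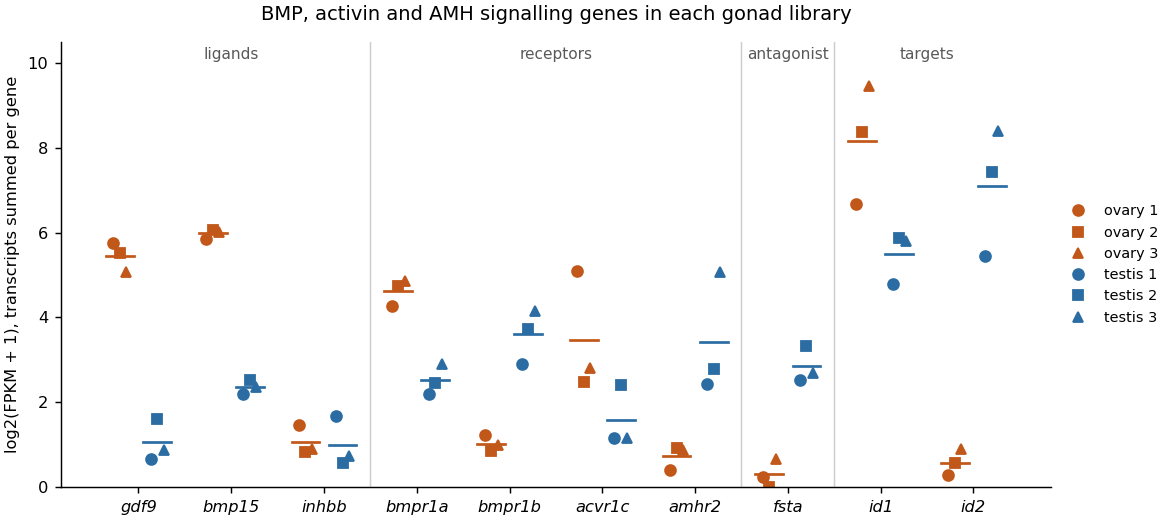
Level of each of the 10 genes in each library, as log2(FPKM + 1) of the summed transcripts, grouped by role. Orange symbols are ovaries and blue symbols testes, symbol shapes mark replicates 1 to 3 and short lines are means of 3 fish. The tissues are separated for every gene but inhbb, and only by a small gap for acvr1c, whose lowest ovary (4.54 FPKM) lies next to its highest testis (4.32).

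The oocyte ligands were abundant in every ovary and low in every testis. Bmp15 stood at 57.0, 66.2 and 63.9 FPKM in ovaries 1, 2 and 3 and at 3.60, 4.77 and 4.13 in testes 1, 2 and 3. The ovaries differed by 1.16-fold at most and the testes by 1.33-fold, the narrowest spread of the 10 genes in either tissue. Bmp15 was 17.8-fold higher in ovary (log2 fold change of testis over ovary -4.16 ± 0.284, SE, n = 3 per tissue, edgeR adjusted p = 0.000771). Gdf9 stood at 53.2, 44.6 and 32.5 FPKM in the ovaries and at 0.580, 2.06 and 0.840 in the testes. The lowest ovary was 15.8-fold above the highest testis, which was replicate 2. Gdf9 was 43.6-fold higher in ovary (log2 fold change -5.45 ± 0.605, edgeR adjusted p = 0.00132), and 76.3-fold without testis replicate 2.

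Within a library, gdf9 was the lower of the pair in all 6 fish. The log2 ratio of gdf9 to bmp15, both in FPKM, was -0.55 ± 0.440 (SD, n = 3) in ovary and -2.03 ± 0.735 in testis, so that gdf9 stood at 0.684 of the bmp15 level in ovary and at 0.244 in testis. No testis reached the ratio of any ovary. The exact permutation p (two-sided) was 0.1, the smallest that 3 against 3 can give, and remained 0.1 after adjustment over the 5 pairs of genes tested.

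The low levels of both ligands in the testes were set beside other oocyte genes there. The 3 testes held bmp15 at 5.77%, 7.65% and 6.62% of its mean ovary FPKM and gdf9 at 1.33%, 4.74% and 1.93%. The sum of FPKM over all transcripts differed between the libraries, and these percentages were not adjusted for that. Zp3 stood at 0.717%, 16.4% and 5.26% of its ovary mean in the same testes, zp2, another egg envelope gene, at 0.0365%, 3.15% and 0.255%, and zar1, which encodes a maternal RNA-binding protein of the egg, at 0.400%, 5.25% and 1.35%. Replicate 2 was the highest testis and replicate 1 the lowest for each of these 5 genes. The pattern did not hold for figla, which encodes an oocyte transcription factor. Figla was also lowest in testis replicate 1, but highest in replicate 3, at 46.36 FPKM against 40.47 in replicate 2. Among the 6 oocyte genes bmp15 varied least, and in testis replicate 1 its percentage was the highest, with figla next at 2.39%. The 6 oocyte markers, all matched, summed to 77013 to 104287 FPKM in the ovaries and 598 to 13457 in the testes, and none was at 0 in any library. Their part in the testis values of gdf9 and bmp15 was not tested.

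**Figure D2:**
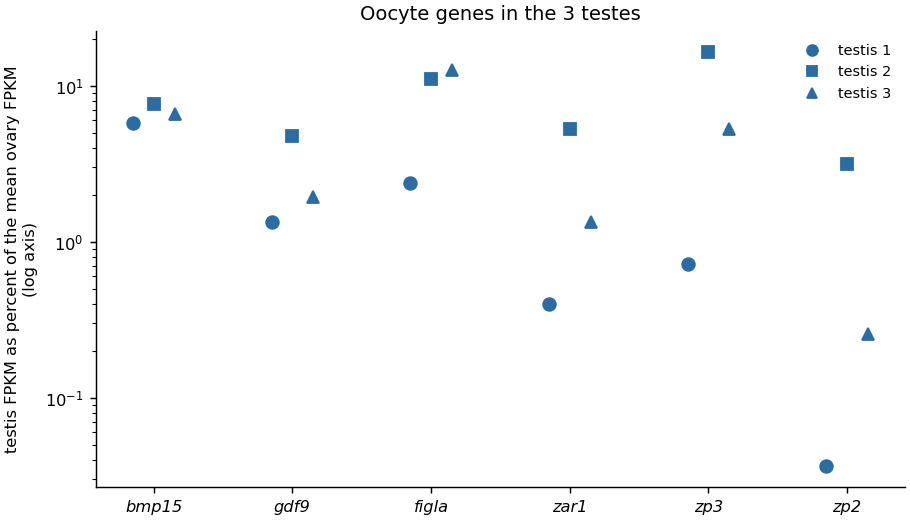
Level of 6 oocyte genes in each testis as a percentage of the mean of the 3 ovaries, on a log axis, with a symbol for each testis replicate. Bmp15 lies between 5.77% and 7.65% in all testes, while zp3 runs from 0.717% to 16.4% and zp2 from 0.0365% to 3.15%.

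The third ligand gene, inhbb, encodes the beta B chain of activin and inhibin, and its transcript had activin B of the Japanese eel as its best database hit. It was low in both tissues, with 73, 28 and 38 counts in the ovaries and 71, 15 and 19 in the testes, or 1.76, 0.770 and 0.860 FPKM against 2.17, 0.470 and 0.670. Replicate 1 was the highest library of each tissue, and the tissues overlapped. Its log2 fold change was -0.35 with a 95% confidence interval from -2.29 to 1.59 (edgeR adjusted p = 0.745), an interval that holds differences of more than 2-fold in either direction. The direction rested on single libraries: the log2 fold change was 0.034 without ovary replicate 1 and -1.22 without testis replicate 1.

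The type I BMP receptors bmpr1a and bmpr1b, which share ligands such as BMP2 and BMP4 in vertebrates, differed in opposite directions. Bmpr1a stood at 18.2, 25.7 and 27.9 FPKM in the ovaries and at 3.61, 4.52 and 6.52 in the testes. It was 6.43-fold higher in ovary (log2 fold change -2.69 ± 0.344, edgeR adjusted p = 0.00191), and no library stood apart. Bmpr1b stood at 1.34, 0.790 and 1.0 FPKM in the ovaries and at 6.53, 12.3 and 16.7 in the testes. It was 9.49-fold higher in testis (log2 fold change 3.25 ± 0.528, edgeR adjusted p = 0.00381), with the lowest testis 4.87-fold above the highest ovary. When only transcripts built from testis reads entered the fit, its log2 fold change was 1.91 (adjusted p = 0.0697). In that fit the median shift in log2 fold change over genes whose counts were unchanged was -1.42, and it was 0.80 in the fit with ovary-built transcripts only, so values from both are read against these shifts.

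The balance of these receptors turned over between the tissues. In ovary the bmpr1a level in FPKM was 22.9 times that of bmpr1b, and in testis it was 0.430 of it (log2 ratios 4.52 ± 0.671 and -1.22 ± 0.319, SD, n = 3, exact permutation p = 0.1 and adjusted p = 0.1 over 5 pairs). Bmpr1a was the higher of the pair in 3 of 3 ovaries and bmpr1b in 3 of 3 testes. As bmpr1a and bmpr1b differed in opposite directions without overlap, the separation of their ratio follows from the single-gene values and is no further evidence.

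**Figure D3:**
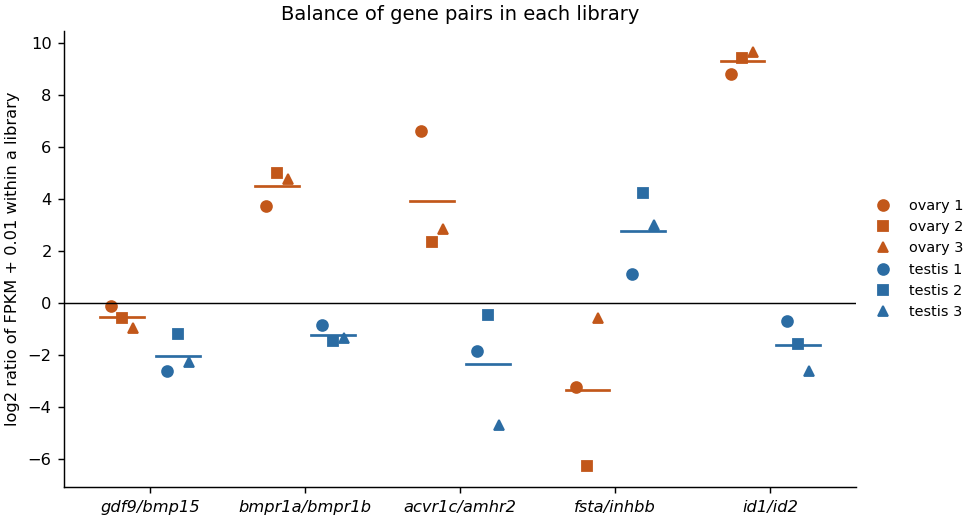
Log2 ratio of the FPKM of 2 genes within each library, with 0.01 added to each, for 5 pairs of the 10 genes. Orange symbols are ovaries, blue symbols testes, shapes are replicates and short lines means. Ovaries and testes do not overlap in any pair, and the ratio crosses 0 between the tissues for bmpr1a to bmpr1b, acvr1c to amhr2, fsta to inhbb and id1 to id2, but not for gdf9 to bmp15. For bmpr1a to bmpr1b, acvr1c to amhr2 and id1 to id2 the separation follows from single genes that differ in opposite directions. For fsta to inhbb it follows from single-gene levels that do not overlap within either tissue.

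Acvr1c encodes a type I receptor for nodal and for some activins and related ligands. It stood at 33.4, 4.54 and 5.99 FPKM in the ovaries and at 1.23, 4.32 and 1.23 in the testes. Ovary replicate 1 was far above every other library, and the lowest ovary exceeded the highest testis by 1.05-fold only. The gene was called as higher in ovary by 7.0-fold (log2 fold change -2.81 ± 0.941, edgeR adjusted p = 0.0455), but the fold was 2.61 without ovary replicate 1 (adjusted p = 0.231) and 12.9 without testis replicate 2 (0.0433). It was not called without ovary replicate 3 (0.0547), testis replicate 1 (0.122) or testis replicate 3 (0.126), with limma-voom (0.116), with limma after adding 1 (0.0772) or 0.1 (0.0631) to the FPKM, with upper quartile scaling (0.0612), without a filter (0.0505), with ovary-built transcripts only (log2 fold change -2.08, 0.132) or with its longest transcript (-1.18, 0.304). All acvr1c transcripts were ovary-built, so its counts were unchanged in the ovary-built fit, whose median shift was 0.80.

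Amhr2, the type II receptor of AMH, was found as a single transcript whose protein hits name that receptor, while its best nucleotide hit was annotated as a TGF-beta type II receptor of the sperm whale. It had 9, 21 and 24 counts in the ovaries, or 0.330, 0.880 and 0.830 FPKM, and stood at 4.42, 5.88 and 32.4 FPKM in the testes. Testis replicate 3 was 5.52 times the next testis, and every testis was above every ovary by 5.02-fold or more. Amhr2 was 17.8-fold higher in testis (log2 fold change 4.15 ± 1.02, edgeR adjusted p = 0.0154) and 6.07-fold without testis replicate 3 (adjusted p = 0.0562). It was not called without ovary replicate 1 (0.0602), without ovary replicate 3 (0.0507), with limma-voom (0.0613) or with testis-built transcripts only (log2 fold change 2.80, 0.0931). In that last fit the counts of amhr2 were unchanged, and the value is read against the median shift of -1.42 given above.

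In the same testes, the 2 matched of 5 Sertoli cell markers summed to 111, 99.1 and 226 FPKM, with 2.27 to 6.34 in the ovaries. The 2 matched of 6 steroid cell markers, star and cyp17a1, summed to 31.3, 55.7 and 171 in the testes and to 1.16 to 25.4 in the ovaries, where star was at 0 in all 3. Cyp17a1 by itself overlapped between the tissues, at 25.35 FPKM in ovary 2 and 25.18 in testis 1. Testis replicate 3 was the highest for both lists. Their part in the values of amhr2 was not tested.

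Fsta encodes follistatin, the secreted protein that binds activin, and the best nucleotide hit of its transcript was follistatin of the Japanese eel. It had 3, 0 and 10 counts in the ovaries and 62, 116 and 62 in the testes, or 0.180, 0 and 0.580 FPKM against 4.74, 9.02 and 5.45. The count of 0 in ovary replicate 2 allows up to 0.199 CPM (3 counts scaled to the library total), for counting error only. Every testis was above every ovary by 8.17-fold or more. Fsta was 20.1-fold higher in testis (log2 fold change 4.33 ± 1.24, edgeR adjusted p = 0.0267), and 52.6-fold without ovary replicate 3, since only 3 ovary counts then remain. It was not called without ovary replicate 1 (adjusted p = 0.103), testis replicate 2 (0.0783) or testis replicate 3 (0.0599), with testis-built transcripts only (log2 fold change 2.91, 0.132) or with the longest transcript of each gene (4.11, 0.0574). The single fsta transcript kept its counts in the last 2 fits, where genes with unchanged counts shifted by a median of -1.42 and -0.19.

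Fsta and inhbb, the antagonist and the ligand chain it binds, were compared within libraries. The fsta level in FPKM was below that of inhbb in 3 of 3 ovaries and above it in 3 of 3 testes (log2 ratios -3.36 ± 2.86 and 2.79 ± 1.57, exact permutation p = 0.1, adjusted p = 0.1 over 5 pairs). The ovary ratios ran from -6.29 to -0.56, and the lowest is that of the ovary without an fsta count, set by the 0.01 FPKM added. In ovary fsta ran from 0 to 0.580 FPKM and inhbb from 0.770 to 1.76. In testis fsta ran from 4.74 to 9.02 and inhbb from 0.470 to 2.17. The separation of this ratio, too, follows from the single-gene values and is no further evidence.

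The target genes id1 and id2 encode proteins that bind basic helix-loop-helix transcription factors and keep them from DNA, and of the 5 pairs compared they differed most between the tissues. Id1 stood at 101, 333 and 709 FPKM in the ovaries and at 26.6, 57.7 and 55.1 in the testes. The ovaries differed by 7.03-fold among themselves, with replicate 3 the highest, and the lowest ovary was 1.75-fold above the highest testis. Id1 was 9.84-fold higher in ovary (log2 fold change -3.30 ± 0.755, edgeR adjusted p = 0.0122) and 5.46-fold without ovary replicate 3 (adjusted p = 0.0335).

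Id2 was low in the ovaries, with 3, 6 and 13 counts or 0.210, 0.470 and 0.860 FPKM, and stood at 42.6, 172 and 335 FPKM in the testes. The testes differed by 7.86-fold, with replicate 1 the lowest and replicate 3 the highest, and all were at least 49.6-fold above the highest ovary. Id2 was 297-fold higher in testis (log2 fold change 8.21 ± 1.04, edgeR adjusted p = 0.00188), and 1.68% of all genes tested had a larger difference. Without testis replicate 3 the fold was 172, without ovary replicate 3 it was 461, and id2 was called in all 6 fits with a library left out. Within a library, the id1 level in FPKM was 637 times that of id2 in ovary and 0.325 of it in testis (log2 ratios 9.32 ± 0.428 and -1.62 ± 0.963, exact permutation p = 0.1, adjusted p = 0.1 over 5 pairs). The last pair, acvr1c to amhr2, had a log2 ratio of 3.94 ± 2.34 in the ovaries and of -2.33 ± 2.18 in the testes (exact permutation p = 0.1, adjusted p = 0.1). For id1 with id2 and acvr1c with amhr2, genes that differed in opposite directions, the separation of the ratio follows from the single-gene values.

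By mean FPKM the order in ovary was id1, bmp15, gdf9, bmpr1a, acvr1c, inhbb, bmpr1b, amhr2, id2 and fsta. The first 4 did not overlap with each other, bmpr1a and acvr1c overlapped, acvr1c stayed above inhbb, and from inhbb down each gene overlapped with the next. Id1 ranked 184 and bmp15 1330 of 9262 genes by mean ovary FPKM, and fsta 8976. The order in testis was id2, id1, amhr2, bmpr1b, fsta, bmpr1a, bmp15, acvr1c, gdf9 and inhbb, and every gene overlapped with the next. Id2 ranked 361 of 9262 by mean testis FPKM, bmp15 7653 and gdf9 8726.

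Gdf9, bmpr1a, acvr1c and id1 had more than 1 transcript each, and these did not all behave alike. Bmpr1a had 5 transcripts with 2 kinds of best protein hit: 3 (transcripts 1, 2 and 5, of 4272, 4042 and 4097 bases) matched the receptor of the red-bellied piranha, and 2 (transcripts 3 and 4, of 3486 and 2893 bases) that of the spotted gar. The piranha-hit form stood at 15.3, 21.7 and 24.4 FPKM in the ovaries and at 2.80, 2.09 and 2.68 in the testes. The gar-hit form stood at 2.84, 3.98 and 3.51 in the ovaries and at 0.810, 2.43 and 3.84 in the testes, which overlapped. Only the piranha-hit form passed the test (log2 fold changes -3.30 ± 0.314 and -0.80 ± 0.698, edgeR adjusted p = 0.00101 and 0.373). The difference between the forms was tested by their ratio within each library, which was 5.39, 5.46 and 6.96 in the ovaries and 3.46, 0.860 and 0.698 in the testes (exact permutation p = 0.1, adjusted p = 0.1 over 2 genes). All ovaries were above all testes, and testis replicate 1 was nearest to the ovaries. Splitting the transcripts by hit was chosen after the data were seen.

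Id1 also had 2 transcripts with different hits, transcript 1 with a best hit in the spotted gar and transcript 2 in the Asian arowana. Transcript 1 stood at 58.9, 284 and 609 FPKM in the ovaries and at 14.7, 26.4 and 22.2 in the testes, and transcript 2 at 41.9, 48.7 and 99.8 against 11.9, 31.3 and 32.9, with no overlap of the tissues for either. Transcript 1 held 83.8% of the id1 counts in ovary and 46.6% in testis. Summed apart, transcript 1 passed the test and transcript 2 did not (log2 fold changes -4.16 ± 0.846 and -1.57 ± 0.552, edgeR adjusted p = 0.00805 and 0.0535). Their ratio was 1.40, 5.84 and 6.10 in the ovaries and 1.23, 0.842 and 0.676 in the testes (exact permutation p = 0.1, adjusted p = 0.1 over 2 genes), so that ovary replicate 1 lay close to testis replicate 1. The counts of both id1 transcripts were whole numbers in all 6 libraries.

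**Figure D4:**
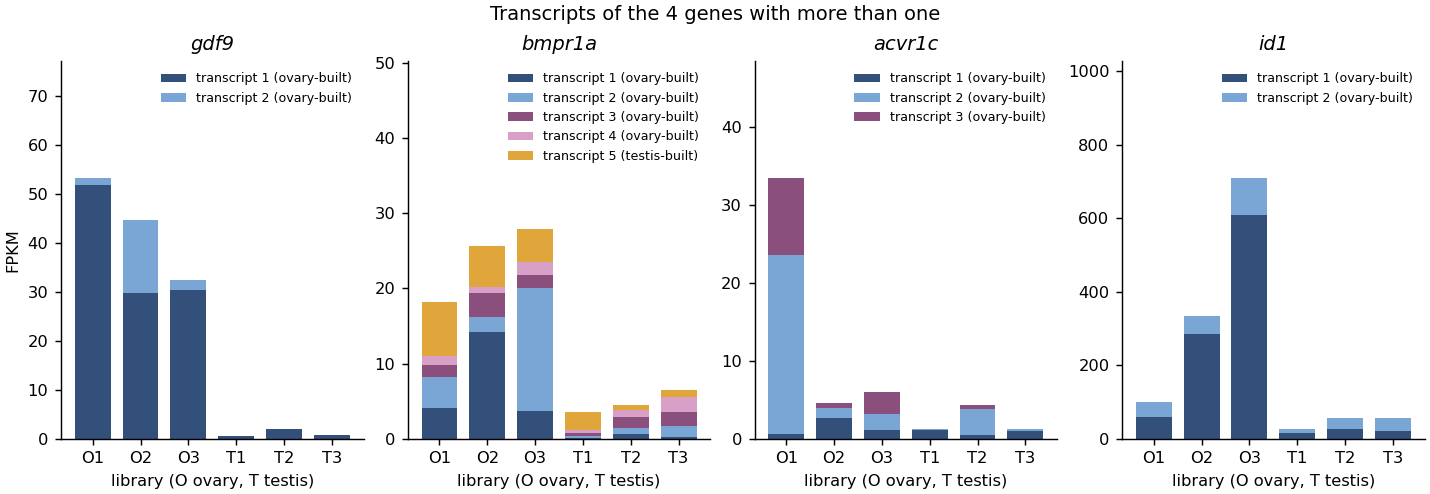
FPKM of each transcript of gdf9, bmpr1a, acvr1c and id1, stacked by library, with O1 to O3 for ovaries and T1 to T3 for testes. The transcript that leads differs between ovaries for bmpr1a, ovary 1 alone holds most of the acvr1c signal, and id1 transcript 1 runs from 58.9 FPKM in ovary 1 to 609 in ovary 3.

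Among transcripts of a gene the leading one changed between libraries. The ovary counts of the bmpr1a and gdf9 transcripts and of acvr1c transcripts 2 and 3 were not whole numbers. How reads were divided between transcripts is not given, and its part in these changes was not tested. Bmpr1a transcripts 1 and 2 stood at 4.07, 14.3 and 3.64 FPKM and at 4.09, 1.92 and 16.4 in ovaries 1, 2 and 3, so a different transcript led in ovary 2 and ovary 3. In ovary 1 the testis-built transcript 5 led, at 7.16 FPKM. Over the testes summed, transcript 5 also held the largest share of the bmpr1a counts, 32.6%. That share rested on testis 1, as it was 71.3%, 16.6% and 18.4% in testes 1, 2 and 3. Transcript 3 held the largest share of the counts in testes 2 and 3, at 29.7% and 28.4%. Gdf9 had a transcript of 2146 bases that held 87.3% of its ovary counts and all of its testis counts, and a transcript of 2077 bases with 46.2, 409 and 68.8 counts in the ovaries and none in any testis. Most of the counts of the shorter one were thus in ovary 2. Of the 3 acvr1c transcripts a different one led in each ovary: transcript 2 held 74.0% of the counts in ovary 1, transcript 1 held 63.4% in ovary 2 and transcript 3 held 39.5% in ovary 3. Their best protein hits were in 3 different species. The best nucleotide hit of transcript 1 was annotated as a TGF-beta type I receptor-like gene of the Atlantic salmon. Transcript 1 held 95.8%, 14.5% and 78.0% of the acvr1c counts in testes 1, 2 and 3. Transcripts 2 and 3 stood at 1.31 and 0.580 FPKM in ovary 2 and at 3.29 and 0.490 in testis 2. Without transcript 1 the tissues thus overlapped. Summed apart by hit, transcripts 1, 2 and 3 were not called (log2 fold changes -0.98, -3.07 and -5.01, edgeR adjusted p = 0.327, 0.172 and 0.0629). Transcripts 1 and 3 were annotated with a protein kinase domain, and transcript 2 with no protein domain. Of the 18 transcripts 5 were higher in ovary and 2 in testis by edgeR over all transcripts, where 10.7% of 30738 passed (4.4% higher in ovary and 6.26% higher in testis). The tissues did not overlap for 13 of the 18, against 41.2% of all transcripts tested. The transcripts called were both of gdf9, the single ones of bmp15, bmpr1b and id2, bmpr1a transcript 1 and id1 transcript 1. None of the 18 was called by edgeR without any one of the ovaries, testis 2 or testis 3, where 9 to 12 of them had an unadjusted p under 0.05. No transcript at all was called in those fits, so this is no trait of the 18. DESeq2 on all libraries called 12 of the 18, beside 9907 of all 30738.

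The long reads defined the transcripts that were counted. Each transcript name carries the tissue whose reads built it and a number that is read here as that of the full-length reads in its cluster. All transcripts of gdf9, bmp15, acvr1c and id1 came from ovary reads, with 40, 5, 6 and 41 full-length reads. The single transcripts of bmpr1b, amhr2, fsta, inhbb and id2 came from testis reads, each with 2 reads, the smallest number in the table. Bmpr1a had 34 reads in 4 ovary transcripts and 3 in a testis transcript. Since a gene is in the table only through a tissue whose reads built a transcript, these numbers are no independent measure of the difference. The ovary transcripts of the table carried 124962 full-length reads and the testis transcripts 63501. No source used here says how transcripts found in both tissues were merged, so a tissue without a long-read transcript is not shown to lack the gene.

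Other genes of the pathway were taken from a list of 121 symbols, of which 29 matched a transcript and 27 were tested. Of these, 7 were higher in ovary, 6 were higher in testis and 14 did not pass the test, so 13 of 27 were called beside 45.9% of all genes. Their median log2 fold change was 0.21, beside 0.11 over all genes tested. The symbols without a matching transcript, amh, gsdf and inha among them, were not analysed here.

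Among the ligands, dvr1, named for a zebrafish maternal factor of early embryonic patterning, was the most abundant pathway gene of the ovary. It stood at 1053, 1131 and 1496 FPKM in the ovaries and at 0.0900, 23.9 and 2.97 in the testes. Testis replicate 2 was the highest testis, as for gdf9. Dvr1 was 151-fold higher in ovary (log2 fold change -7.24 ± 1.76, edgeR adjusted p = 0.0150), and 1086-fold without testis replicate 2. It was not called without testis replicate 3 (adjusted p = 0.0530). Tgfb3, a TGF-beta ligand, stood at 0.430, 0.390 and 0.240 in the ovaries and at 1.36, 7.45 and 21.1 in the testes. It was 24.1-fold higher in testis (adjusted p = 0.0131) and 10.6-fold without testis replicate 3. Tgfb3 was not called without ovary replicate 3 (0.0540), with limma-voom (0.108) or with a replicate block (0.0630).

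Of the 7 other receptors 2 passed the test. Tgfbr3 (betaglycan), a co-receptor for TGF-beta and inhibin, was higher in ovary, at 18.4 ± 8.61 FPKM (SD, n = 3) against 3.98 ± 1.01 (log2 fold change -2.32 ± 0.422, edgeR adjusted p = 0.00540). Acvr1, a type I receptor for BMPs, was higher in testis, at 34.6 ± 2.36 against 17.0 ± 2.78 (log2 fold change 0.87 ± 0.236, adjusted p = 0.0216). It was called in 1 of the 6 fits with a library left out, with adjusted p values of 0.0576 to 0.0924 in the others, and with testis-built transcripts only its log2 fold change was -0.21, a fall smaller than the shift of that fit. Tgfbr1, tgfbr2, acvr1b, acvr2a and acvr2b were not called.

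Of the 10 inhibitors, 4 had higher levels in testis and 2 had higher levels in ovary. Bambi, a decoy receptor that lacks the kinase, had 141 ± 34.3 FPKM in the ovaries and 3.75 ± 2.71 in the testes (log2 fold change -5.51 ± 0.798, edgeR adjusted p = 0.00262), and twsg1a, a secreted BMP-binding protein, at 97.0 ± 17.0 and 13.0 ± 9.63 (-3.13 ± 0.674, adjusted p = 0.00979). The 2 follistatin relatives fstl3, which binds activin, and fstl1 were higher in testis, as fsta was. Fstl3 stood at 1.08, 1.15 and 0.120 in the ovaries and at 12.3, 40.5 and 151 in the testes, 75.4-fold higher (adjusted p = 0.00789) and 28.8-fold without testis replicate 3, and it was not called with limma-voom (0.0558). Fstl1 had 6.97 ± 5.79 FPKM in the ovaries against 34.7 ± 8.95 in the testes (adjusted p = 0.0218), and it was not called without ovary replicate 2 (0.0610), ovary replicate 3 (0.0758) or testis replicate 3 (0.0627). Its fold of 4.16 was 7.31 without ovary replicate 1. Smurf2, a ubiquitin ligase for pathway proteins, stood at 1.71 ± 0.159 and 16.9 ± 1.34 (3.05 ± 0.337, adjusted p = 0.00132), and skil, a repressor that binds SMADs, at 0.247 ± 0.146 and 3.67 ± 2.33 (adjusted p = 0.0114).

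Of 7 mediators 2 passed, both higher in ovary. Smad2, which carries activin and TGF-beta signals, stood at 56.7 ± 9.89 FPKM in ovary and 16.1 ± 2.09 in testis (log2 fold change -2.02 ± 0.270, edgeR adjusted p = 0.00209), and smad9, which carries BMP signals, at 7.65 ± 1.81 and 2.64 ± 0.641 (-1.79 ± 0.408, adjusted p = 0.0119, and 0.0526 without ovary replicate 2). Smad1 and smad5, the other SMADs of BMP signals, stood at 11.9 ± 2.77 and 37.2 ± 4.25 in ovary and at 8.12 ± 3.17 and 25.7 ± 8.21 in testis, and were not called (adjusted p = 0.177 and 0.0944). Msx2, a homeobox gene that responds to BMP, was higher in ovary as id1 was, at 34.9 ± 4.23 against 6.36 ± 4.72 (-2.71 ± 0.638, adjusted p = 0.0133). It was not called without testis replicate 2 (0.0515), and its fold of 6.56 was 11.5 without testis replicate 3. The fold of twsg1a, 8.74, was 14.2 without testis replicate 3.

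Some of these calls were lost in fits on part of the transcripts. Of all genes, 1997 of 7459 were called there with testis-built transcripts, 2465 of 9112 with ovary-built ones and 3533 of 12124 with the longest transcript. The main fit called 5681 of 12367, so such losses are no trait of the pathway. Genes with unchanged counts shifted there by a median of -1.42 (testis-built), 0.80 (ovary-built) and -0.19 (longest transcript), and the values below are read against these shifts. Tgfb3, skil and smad9 had 1 transcript each, so their own counts were the same in these fits. With testis-built transcripts only, the log2 fold change was 3.34 for tgfb3 (edgeR adjusted p = 0.0626), 0.69 for fstl1 (0.415), 2.08 for skil (0.0870) and -2.07 for smad2 (0.466). With ovary-built transcripts only it was 0.99 for acvr1 (0.143), -1.48 for tgfbr3 (0.0507), -0.95 for smad9 (0.140) and -2.44 for msx2 (0.0871). With the longest transcript of each gene it was -6.03 for dvr1 (0.120) and -2.67 for msx2 (0.236).

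**Figure D5:**
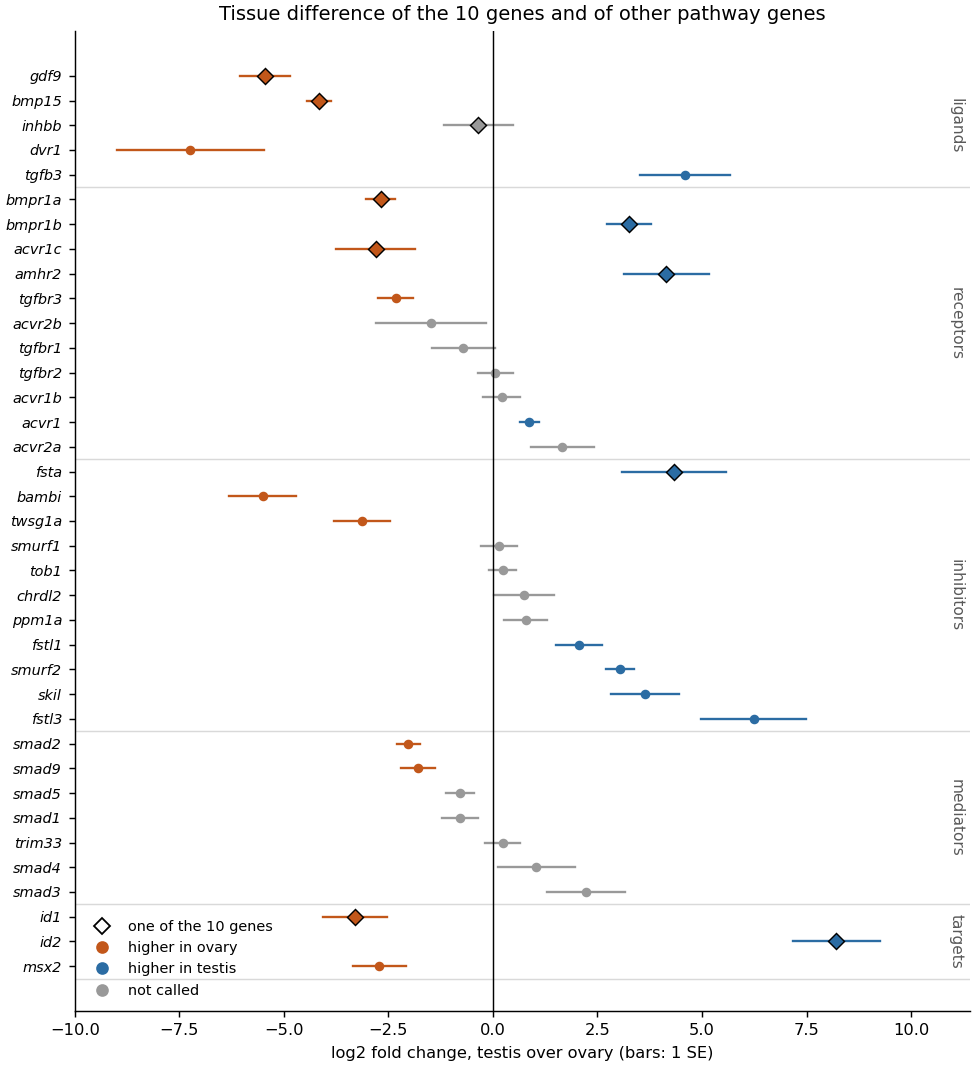
Log2 fold change of testis over ovary for the 10 genes (diamonds) and 27 other pathway genes (circles), grouped by role, with bars of 1 SE. Blue marks genes higher in testis, orange genes higher in ovary and grey those not called at an adjusted p of 0.05. Each role with more than 1 called gene among the 37, other than the mediators, holds genes of both directions, from dvr1 at -7.24 to id2 at 8.21.

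For the oocyte ligands, the genes with the most similar levels over the 6 libraries were sought among all symbols by the mean absolute difference of log2(FPKM + 1). Nearest to bmp15 were stap2 (mean difference 0.093), tmem79 (0.25) and parp11 (0.28). Stap2 stood at 55.8, 59.9 and 57.0 FPKM in the ovaries and at 4.2, 4.65 and 4.07 in the testes. Nearest to gdf9 were wbscr17 (0.20), wfikkn (0.29) and ptgs1 (0.30), with wbscr17 at 50.6, 44.0 and 34.8 in the ovaries and 0.20, 1.36 and 1.16 in the testes.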

How the data were processed

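RNA of 3 ovaries and 3 testes was sequenced by the authors from NEBNext Ultra libraries after TRIzol extraction. Tools named in the submitters' processing notes are featureCounts 1.5.0-p3, HISAT2 2.0.5, fastp and CASAVA 1.8. Which tool gave the values, and any genome build, were not given in the sources used here. Per the file headers, the deposited table gives a read count per full-length transcript, an estimated count made by the authors with a quantifier they do not name there, since 26.5% to 31.6% of values per library, zeros included, and 18.2% to 19.8% of those above 0 were exactly whole. FPKM, as deposited per the file headers, relate counts to transcript length and library size. They summed to 752630, 721650 and 821037 in ovaries 1, 2 and 3 and to 770032, 1218425 and 1312673 in testes 1, 2 and 3. They were not rescaled to equal sums.

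Estimated counts and FPKM were summed per symbol (the lower-case gene name of a vertebrate SwissProt hit, 31079 transcripts, 9262 symbols), with other transcripts kept single (13194 units). Transcripts of close paralogs can fall under 1 symbol, and how reads were divided between them is not given. Rounded sums were tested with edgeR 4.0.16 (TMM, filterByExpr, robust glmQLFit, glmQLFTest, tissue as the only term) in R 4.3.3. Standard errors and intervals of log2 fold changes were derived from the F statistic. The fit was tested on simulated data. Pairs of genes were tested on log2(FPKM + 0.01) ratios by exact permutation, two-sided. Alternatives were DESeq2 1.42.0, limma 3.58.1 (voom, and log2 FPKM with 1 or 0.1 added), other scalings, no filter, other sets of transcripts, a replicate block and leaving out each library. Tables and figures used Python 3.11.15 (matplotlib 3.10.9, scipy 1.17.1, numpy 2.4.6, pandas 2.3.3).

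The 10 genes, the pathway list and the markers were chosen with earlier results of these data known. Named were all 10 genes, up to 12 called pathway genes per direction, the 3 nearest genes of gdf9 and of bmp15, and the transcripts holding most of a gene's counts. Pathway genes not called and named are so named after their values were seen. Marker lists other than those in the text are given at the end.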

Additional observations from a re-analysis of the deposited data

How the results depend on the processing

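The directions and calls of gdf9, bmp15 and id2 held in every alternative tried for them, and those of bmpr1a and id1 in all but the split by best hit. Over the 22 called genes among the 10 and the pathway list, 306 of the gene-by-setting values kept direction and call, 55 lost the call and 1 turned. The values that turned, with that of the uncalled inhbb, were inhbb without ovary replicate 1 (0.034) and acvr1 with testis-built transcripts only (-0.21). The inhbb values ran down to -1.22 when a library was left out (testis replicate 1) and to -1.94 with testis-built transcripts only. With ovary-built transcripts only, 5 of the 10 genes could be tested, of which 4 were higher in ovary and 0 in testis. Bmpr1b, amhr2, fsta and id2 have no ovary-built transcript, so no gene called as higher in testis could enter that fit. With testis-built transcripts only, 6 could be tested, of which 1 was higher in testis and 1 in ovary. Gdf9, bmp15, acvr1c and id1 have no testis-built transcript and could not enter it. Genes whose counts were the same in these fits shifted by a median of 0.80 (ovary-built) and -1.42 (testis-built) on the log2 scale, and by -0.19 with the longest transcript. Leaving out a library gave 2 to 4 higher in testis and 4 to 5 in ovary. Pathway genes higher in testis and in ovary numbered 0 and 4 (of 22 tested) with ovary-built transcripts, 2 and 2 (of 17) with testis-built ones, 7 and 4 (of 26) with the longest transcript per gene, and 3 to 6 and 6 to 8 without a library. Over all genes these numbers were 1159 and 1306 of 9112 with ovary-built transcripts and 1102 and 895 of 7459 with testis-built ones. With the longest transcript they were 2012 and 1521 of 12124. Of all genes, 2001 to 3155 were higher in testis and 1894 to 3026 in ovary without a library. Of the 18 transcripts, those higher in testis and in ovary numbered 4 and 8 with DESeq2, 0 and 2 with limma-voom, 1 and 2 without a filter, and 0 to 2 and 0 to 2 without a library, for causes that were not tested. Over all transcripts they numbered 4882 and 5025 with DESeq2, 1053 and 1023 with limma-voom and 989 and 581 without a filter. Without testis replicate 1 they numbered 935 and 504, and without any other library no transcript was called. Scaling moved the median over all genes (log2) from 0.11 to 0.30 with upper quartile and to 0.036 with RLE, and no called gene of the 10 changed direction with it. The differences of the 5 pair ratios kept their sign throughout.

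Same-numbered ovaries and testes did not deviate together (correlations of -0.0276, 0.00592 and -0.0311 across genes), and the replicate numbers share no stated fish or day. With the replicate block the test called 2272 genes as testis-high and 2062 as ovary-high. Of the 10 genes 3 and 4 were called in the block fit, with fsta at an adjusted p of 0.0620 and acvr1c at 0.128. Of the pathway genes 4 and 7 were called, with tgfb3 at 0.0630 and acvr1 at 0.0659. No transcript was called with the block, so 0 and 0 of the 18 (7300 of all transcripts and 10 of the 18 at an unadjusted p under 0.05). The mean paired differences of the ratios had an exact p of 0.25, the smallest 3 pairs can give.

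Depth is low, at 73 counts or fewer per library, for inhbb in both tissues, for fsta, id2 and amhr2 in ovary and for gdf9 in testis. Little above this were bmpr1b in ovary, with 83, 43 and 66 counts, and acvr1c in testis, with 48, 145 and 41.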

Other observations

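Among the 27 other pathway genes, 8 had a level in testis replicate 1 that was more than 2-fold that of the next testis: acvr1b, acvr2a, acvr2b, ppm1a, skil, smad3, smad4 and tgfbr1, named after their values were seen. Testis replicate 1 stood apart across all genes, and the share of all genes with such a level was not determined. The number is therefore not read as a trait of the pathway. Smad4, the SMAD that all branches of the pathway share, stood at 17.7, 2.33 and 1.64 FPKM in testes 1, 2 and 3 and at 3.18, 1.98 and 3.15 in the ovaries. Tgfbr1, the type I receptor of TGF-beta, stood at 22.7, 3.57 and 2.88 in the testes and at 11, 10.6 and 12.8 in the ovaries, so that testis replicate 1 lay above all ovaries and the other testes below them. Smad3 stood at 12.5, 1.93 and 1.77 in the testes and acvr2a, a type II activin receptor, at 14.6, 3.60 and 2.14. Of these 8 genes only skil was called between the tissues. In testis replicate 1 the 4 meiosis markers, all matched, summed to 764 FPKM against 279 and 385 in the other testes and 7.03 to 12.5 in the ovaries. The 3 matched of 5 smooth muscle and vessel markers summed to 763 against 44.1 and 148, with 6.14 to 8.97 in the ovaries. The part of these in the values was not tested.

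A second set was highest in testis replicate 3 by more than 2-fold over the next testis: fstl3, tgfb3 and msx2 among the other pathway genes, and amhr2 among the 10. For this set, too, the share of all genes with such a level was not determined. Msx2 stood at 2.17, 5.44 and 11.5 FPKM in testes 1, 2 and 3. The Sertoli and steroid cell marker sums given above were also highest there, and their part in these values was not tested. The 2 matched of 5 granulosa markers, foxl2 and fsta itself, summed to 1.73 to 2.30 in the ovaries and 4.89 to 12 in the testes, and foxl2 alone stood at 1.15 to 2.12 and 0.150 to 3.02. The 3 matched of 4 germ cell markers summed to 258 to 372 and 1519 to 2350, the 3 of 7 red blood cell markers to 150 to 187 and 1411 to 3886 (led by cahz, at 3723, in testis 1 and by hbb1, at 3679 and 1267, in testes 2 and 3), and the 4 of 6 leukocyte markers to 65.4 to 120 and 265 to 865. Some single markers overlapped between the tissues. Cd74 stood at 63.9 FPKM in ovary 1 and 59.8 in testis 1, and hbb1 at 179 and 160. Alas2 stood at 3.44 in ovary 3 and 3.17 in testis 1.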
